A study of Homo sapiens and Mus musculus with 12 samples.

Results

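The comparison described here is that of ponatinib with its solvent in 4T1 cells, a cell line from a mouse mammary carcinoma. Its members are the 6 libraries labelled with the cell line 4T1 out of 12 in the series. Of these, 3 came from cells given 1 μM ponatinib and 3 from cells given DMSO, both for 24 h. All 6 are labelled wild type, breast and epithelial cell, and the methods give the same medium with serum, the same plating 24 h before treatment and the same number of cells for both groups. The sources do not say whether the 3 libraries of a group came from separate cultures, so the p-values below measure the spread between these libraries, which may be technical. The line stands for a single tumor of a single inbred strain. RNA-seq reads were counted per gene by the authors, and the question addressed is which genes and functions change across the whole mouse genome when this line meets the drug.

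Ponatinib is an inhibitor of many tyrosine kinases, developed against ABL and also active on FGF, PDGF and VEGF receptors and SRC-family kinases. Signals from such kinases reach the nucleus largely through MAP kinases and AP-1 transcription factors, and they raise the production of ribosomes, the folding capacity of the endoplasmic reticulum (ER) and entry into S phase. Lysosomes, lipid synthesis and the genes that interferons induce are each under the control of factors of their own, among them TFEB, the sterol-regulated SREBP proteins, and STAT and IRF proteins.

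Total counts lay between 17800675 and 18951493 per library, and values are given below as counts per 1000000 (CPM) after TMM scaling, which corrects for differences in library composition. The first principal component of log2 CPM held 80.8% of the variance and separated the treatments, and the second held 7.14% and set DMSO replicate 1 and ponatinib replicate 1 to one side. Of the epithelial markers, *Krt8*, *Krt18*, *Krt19* and *Cdh1* were abundant in all 6 libraries, whereas *Epcam* was at 2.86 CPM with DMSO and *Cldn7* had at most 4 counts in a library. Summed over all 8 epithelial markers, the level was 7894 to 9092 CPM with DMSO and 8031 to 8843 CPM with ponatinib. This sum came mostly from *Krt8*, *Krt18* and *Krt19*. Of the 7 epithelial markers tested, 1 rose and 3 fell. *Cldn4* had 86, 90 and 86 counts with DMSO and 45, 24 and 36 with ponatinib, and *Krt7* had 247, 196 and 177 against 113, 126 and 121. Of 11 hematopoietic markers, 5 had no count in any library, among them *Adgre1*, *Cd3e*, *Itgam* and *Tyrobp*, and *Ptprc* had at most 4. The sum of that list, 225 to 251 CPM with DMSO and 140 to 158 CPM with ponatinib, came almost wholly from *Cd14*. Of 9 fibroblast markers, *Col1a2*, *Dcn*, *Lum* and *Thy1* had no count, and the summed level was 8.39 to 9.3 CPM with DMSO and 14.8 to 17.9 CPM with ponatinib. Of the 4 fibroblast markers tested, *Col1a1* and *Postn* rose and *Pdgfra* and *Pdgfrb* fell, the latter with 12 to 14 counts in the DMSO libraries and none with ponatinib, and 1 of these falls was lost without DMSO replicate 3 or ponatinib replicate 1. Of 8 endothelial markers, *Cldn5* and *Emcn* had none, and the sum was 4.67 to 7.15 CPM with DMSO and 2.89 to 3.43 CPM with ponatinib. The part of these marker levels in the results below was not tested.

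Of 13286 genes tested with edgeR's quasi-likelihood test and Benjamini-Hochberg adjustment, 3925 were higher with ponatinib (29.5%) and 3909 lower (29.4%) at an adjusted p under 0.05, which is the meaning of "rose", "fell" and "called" below. A change of at least 2-fold was more often a rise, with 1271 genes higher (9.57%) and 643 lower (4.84%). The same held for larger changes, as 331 genes rose and 159 fell at least 4-fold, and 120 rose and 66 fell at least 8-fold. Many calls were small, since 3763 of the called genes changed by less than 1.5-fold. When libraries were scaled by their totals alone, the median log2 fold change over all genes moved by 0.12 and the calls became 4854 higher and 2935 lower, so differences below about this size depend on the scaling. A list member that is not counted as tested had too few counts in both groups to pass the filter. Of the tested genes, 671 passed it through the ponatinib libraries and 306 through the DMSO libraries while the other group had a library under the minimum, so that the filter itself favored a difference in them, and 426 and 186 of them were called. The named genes of this kind are *Oas1a*, *Oas1b*, *Oas1c*, *Usp18*, *Ifit3*, *Gbp2*, *Psmb8*, *Psmb9*, *C2*, *C4bp*, *Cd55*, *Hc*, *Nr1i2*, *Serpinb8*, *Serpina3i*, *Bmp2*, *Bcl2l14*, *Abcc6*, *Pklr*, *Pcdh18*, *Aldh3b3*, *Cyp11a1*, *Islr*, *Ccdc33* and *Gm17322* through the ponatinib libraries and *Pcdh9*, *Pdgfrb*, *Csn3*, *Il11*, *Il23a*, *Gsg1* and *Prl2c3* through the DMSO libraries, and their calls follow in part from the filter. Some members of the lists below that are not named passed it in the same way, so the list counts also follow in part from it. CPM is a share of each library, and in bulk RNA less of a transcript in each cell cannot be told apart from fewer of the cells that hold it.

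**Figure D1:**
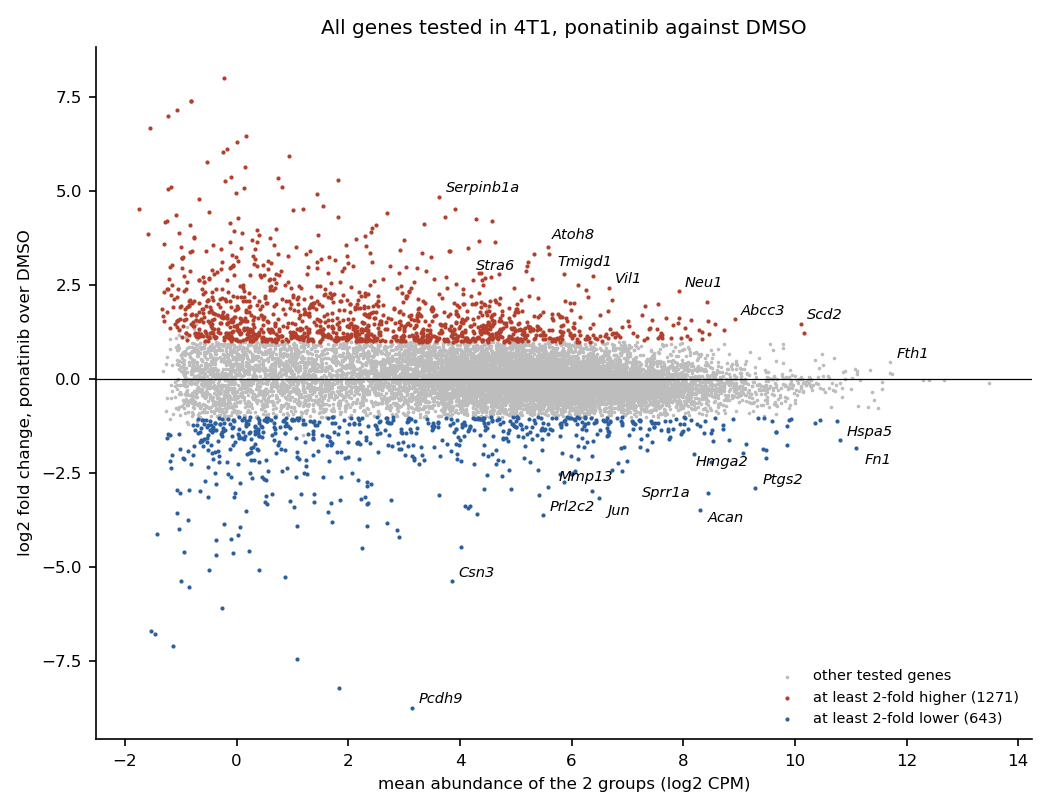
Each point is 1 of the 13286 tested genes, with the mean abundance of the DMSO and ponatinib groups in log2 CPM on the horizontal axis and the log2 fold change of ponatinib over DMSO on the vertical axis. The 1271 genes at least 2-fold higher (red) crowd toward low and middle abundance, while falls (blue) reach to the right, where *Fn1* and *Hspa5* lie.

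The genes with the largest rises among those with at least 10 CPM were led by a serpin. *Serpinb1a*, an inhibitor of neutrophil proteases (ENSMUSG00000044734, chromosome 13 of GRCm39 from 33026042 to 33035224), was at 1.13, 0.556 and 0.766 CPM in the DMSO libraries and at 21.9, 24.2 and 25.6 CPM in the ponatinib libraries (log2 fold change 4.86, standard error 0.19, adjusted p = 6.89e-11). *Sptssb*, a small subunit of serine palmitoyltransferase, the first enzyme of sphingolipid synthesis, went from 1.36, 1.28 and 1.09 to 28.2, 29.8 and 29.2 CPM (log2 fold change 4.54, standard error 0.15, adjusted p = 1.57e-11). In both, every ponatinib library lay many times above every DMSO library. *Sgpp2*, a sphingosine-1-phosphate phosphatase, rose by a log2 fold change of 3.7 and *St3gal5*, which makes the ganglioside GM3, by 2.07, although only 13 of the 29 tested genes of sphingolipid metabolism rose and 8 fell.

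Other large rises were those of *Apob*, *Slc17a4*, *Tmigd1*, *Tjp3*, *Vil1*, *Ace* and *Ppp1r1b*. *Apob*, the core protein of lipoproteins, went from 2.45 to 25.9 CPM, *Slc17a4*, an organic anion transporter, from 1.28 to 14 CPM, *Tmigd1*, an epithelial adhesion molecule, from 8.67 to 88 CPM, and *Tjp3*, a tight junction scaffold, from 2.43 to 25.6 CPM. *Vil1*, the microvillar actin bundler villin, was at 35.6, 28.5 and 30.8 CPM with DMSO and 173, 163 and 179 CPM with ponatinib (log2 fold change 2.44, standard error 0.09, adjusted p = 3.87e-11). *Ace*, the angiotensin-converting enzyme, rose by 4.14 on the log2 scale and *Ppp1r1b*, an inhibitor of protein phosphatase 1 known as DARPP-32, by 4.22. Of 13 keratins, 2 rose and 3 fell, and the rises were 0 without DMSO replicate 3 or ponatinib replicate 3 and 1 without ponatinib replicate 1, with *Krt8* at 0.24 and *Krt18* at -0.54 on the log2 scale. *Cdh1*, or E-cadherin, was at 830 ± 57.7 CPM with DMSO against 909 ± 58 CPM with ponatinib (SD, n = 3 each) and did not pass the test (adjusted p = 0.187).

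Among enzymes of sugar metabolism, *Pklr*, the liver and red cell pyruvate kinase, which passed the filter through the ponatinib libraries, went from 0.615 to 10.7 CPM, and *Fbp2*, a fructose-1,6-bisphosphatase of gluconeogenesis, from 3.52, 4.11 and 3.39 to 44.6, 45.2 and 47.9 CPM (log2 fold change 3.64, standard error 0.12, adjusted p = 1.6e-11). The pyruvate kinase gene that carries most glycolytic flux in tumor cells, *Pkm*, was at 3108 ± 228 CPM with DMSO against 3531 ± 110 CPM with ponatinib (SD, n = 3 each) and did not pass the test (adjusted p = 0.069, and 0.0291 with the replicate number as a block). Without DMSO replicate 1, *Pkm* was called higher (0.23 on the log2 scale, adjusted p = 0.018). Of 22 glycolytic genes 5 rose (8 with total-count scaling) and 9 fell, among the latter the glucose transporter *Slc2a1* (-0.87 on the log2 scale) and the lactate transporter *Slc16a1* (-0.66).

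At the other end, *Pcdh9*, a cell adhesion protocadherin, nearly vanished. It had 16.8, 18.6 and 17.7 CPM in the DMSO libraries and 0.0511, 0 and 0.0542 CPM in the ponatinib libraries. In counts this was 953 against 2, a ratio of 507 with a 95% Clopper-Pearson interval of 140 to 4190 that covers counting error only. The other 3 tested protocadherins outside the gene clusters changed by smaller factors, as *Pcdh7* fell by 1.06 and *Pcdh1* by 0.43 on the log2 scale and *Pcdh18* rose by 1.61. *Csn3*, which encodes the milk protein κ-casein, went from 28.2, 27.8 and 29.3 to 0.767, 0.982 and 0.271 CPM (log2 fold change -5.37). *Ndst3*, an enzyme that sulfates heparan sulfate chains, was at 29.1, 31.7 and 31.8 CPM with DMSO and 1.74, 1.34 and 1.08 CPM with ponatinib (log2 fold change -4.46, standard error 0.16, adjusted p = 2.66e-11). Its widely expressed relative *Ndst1* fell by 0.64 on the log2 scale, from 221 to 142 CPM. The neural genes *Vgf*, a secreted neuropeptide precursor (-3.57), and *Ptpn5*, a tyrosine phosphatase that acts on MAP kinases (-3.37), and the ATP-gated channel gene *P2rx7* (-3.42) belong to the same group of steep falls.

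Counted in CPM rather than folds, which follows transcript length as well as abundance, the largest losses were those of *Fn1* and *Hspa5*. *Fn1*, the matrix glycoprotein fibronectin (ENSMUSG00000026193, chromosome 1 of GRCm39 from 71624673 to 71692419), was at 3693, 3490 and 3060 CPM in the DMSO libraries and 1131, 882 and 896 CPM in the ponatinib libraries (log2 fold change -1.82, standard error 0.11, adjusted p = 4.66e-09). Losses of between 983 and 1458 CPM were seen for the linker histone gene *H1f0*, the ephrin receptor gene *Epha2*, the autophagy receptor gene *Sqstm1*, *Anxa2*, *Odc1*, *Krt18*, the histone gene *H3f3b* and *Emp1*. Of these the steepest was *Odc1*, ornithine decarboxylase, the rate-limiting enzyme of polyamine synthesis, which went from 1437 to 427 CPM (log2 fold change -1.75). Large gains were those of *Fth1*, the ferritin heavy chain that stores iron (from 2812 to 3871 CPM), *Scd2*, a fatty acid desaturase (from 584 to 1625 CPM), and *Actg1*, *Ctnnb1*, *Lgals3bp*, *Abcc3*, *Hspa8*, *Csf1* and *Plxnb2*, with gains of 460 to 665 CPM.

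The plot of calls within functional lists sets these genes in groups. The lists were written from general knowledge with earlier results of these data in view, so the counts describe their members and are no test of a list.

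**Figure D2:**
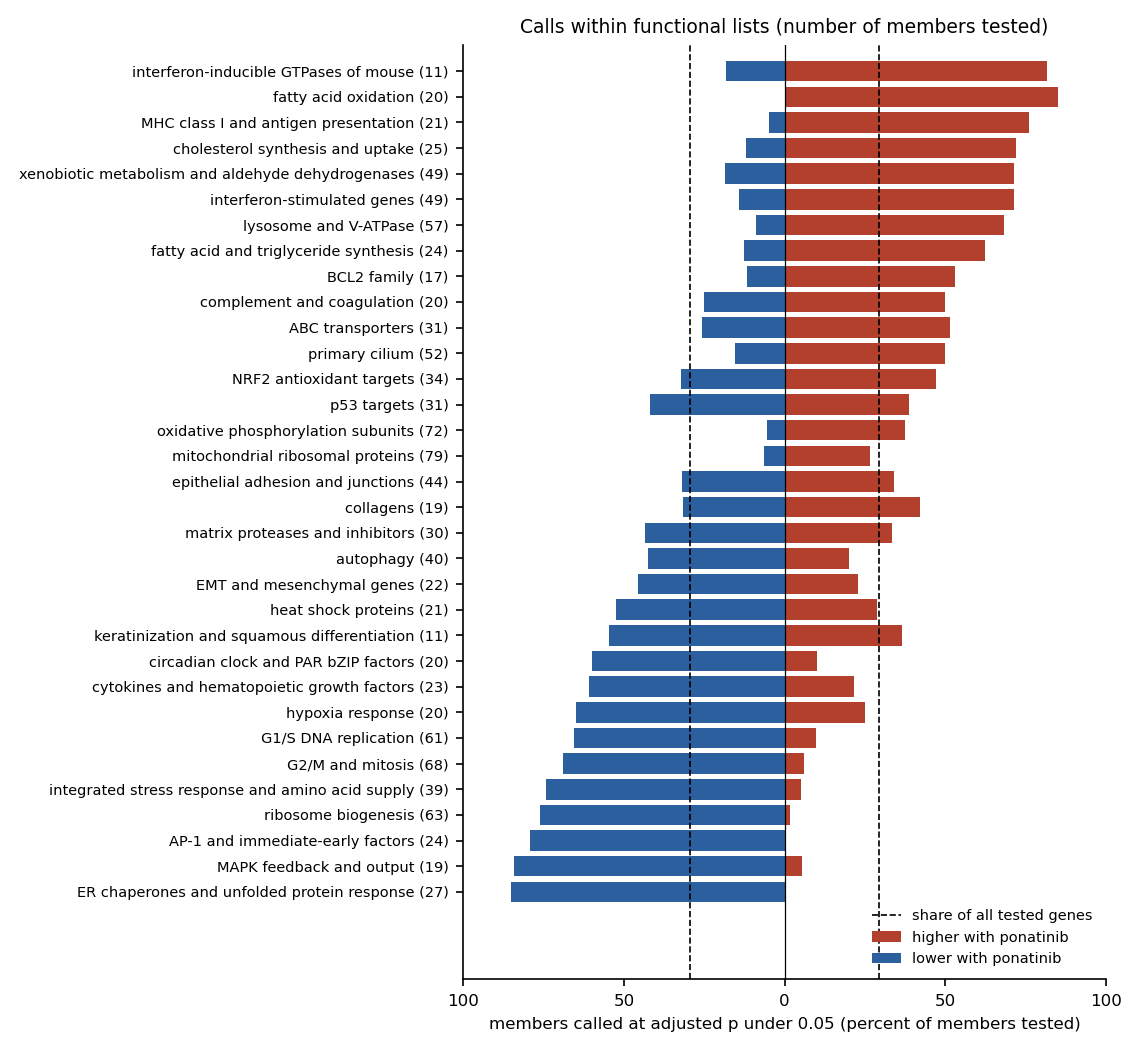
Bars give the percent of each list's tested members that were higher (red, right) or lower (blue, left) with ponatinib at an adjusted p under 0.05, with the number tested in parentheses. Dashed lines mark the shares of all tested genes, 29.5% higher and 29.4% lower. Fatty acid oxidation and ER chaperones stand at opposite ends, with 85.0% of members higher and 85.2% lower.

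Transcripts for the folding machinery of the ER were lower almost throughout. Of 27 ER chaperones and unfolded protein response genes, 23 fell and none rose, with 6 at least 2-fold lower and a median log2 fold change of -0.66, beside a median of 0 over all genes. Their summed level was 8649, 9030 and 9003 CPM in the DMSO libraries and 5213, 5375 and 5325 CPM in the ponatinib libraries. *Hspa5*, the main chaperone of the ER lumen, known as BiP (ENSMUSG00000026864, chromosome 2 of GRCm39 from 34661982 to 34668880), was at 2630, 2751 and 2760 CPM with DMSO and 895, 890 and 860 CPM with ponatinib (log2 fold change -1.62, standard error 0.08, adjusted p = 4.14e-10). *Xbp1*, a transcription factor that drives these genes, fell by 1.53 on the log2 scale (from 324 to 112 CPM), *Hyou1*, a partner chaperone of BiP, by 1.32, *Hspa13* by 1.56 and the secreted *Manf* by 1.18. The exception among abundant members was *P4hb*, protein disulfide isomerase, at 1120 ± 20.8 CPM with DMSO against 1126 ± 39.1 CPM with ponatinib (SD, n = 3 each), which did not pass the test (adjusted p = 0.94).

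The promoters of these genes are shown because a single known element recurs in them. The ER stress response element (ERSE, searched as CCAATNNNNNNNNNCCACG), which is bound by ATF6 together with NF-Y, was searched for in the window from 250 bases before to 50 bases after the start of the canonical transcript, on both strands. It was chosen after the fall of these genes had been seen. The element was found in 9 of the 27 promoters of the list (33.3%) and in 14 of all 11752 promoters of tested protein-coding genes (0.119%). All 9 listed carriers fell, from -0.47 on the log2 scale for *Calr* to -1.62 for *Hspa5*, and of the 5 carriers outside the list *Pan2*, *Zfp57* and *Hnrnpa3* fell while *Alg12* and *Ttc41* did not pass the test. In these 3 promoters, which end 1 base before the transcript start in GRCm39, matches to the element are in capitals. *Hsp90b1*, the ER form of HSP90 (-0.73 on the log2 scale), holds it at 2 positions, and *Dnajc3*, a co-chaperone (-0.99), at 1.
*Hspa5* chr2:34662004-34662103 (forward strand): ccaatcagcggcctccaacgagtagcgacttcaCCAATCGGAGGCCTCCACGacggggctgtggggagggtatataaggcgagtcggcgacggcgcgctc
*Hsp90b1* chr10:86541379-86541538 (reverse strand): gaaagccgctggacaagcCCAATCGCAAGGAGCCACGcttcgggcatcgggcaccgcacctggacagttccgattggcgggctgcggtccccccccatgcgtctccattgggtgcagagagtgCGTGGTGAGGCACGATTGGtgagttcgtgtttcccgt
*Dnajc3* chr14:119175215-119175344 (forward strand): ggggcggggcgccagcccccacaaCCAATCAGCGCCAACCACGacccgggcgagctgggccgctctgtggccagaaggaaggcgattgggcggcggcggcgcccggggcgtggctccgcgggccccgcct

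Chaperones outside the ER did not move as a block. Of 21 heat shock proteins, 6 rose and 11 fell. *Hspa8*, the constitutive cytosolic HSP70, rose from 666, 583 and 672 to 1077, 1141 and 1164 CPM (log2 fold change 0.82, standard error 0.08, adjusted p = 9.66e-07), whereas *Hspa9*, the mitochondrial HSP70, fell from 1887, 2080 and 2079 to 1156, 1277 and 1193 CPM (log2 fold change -0.74, standard error 0.08, adjusted p = 2.3e-06). The inducible cytosolic *Hsp90aa1* fell by 0.71 and its constitutive partner *Hsp90ab1* rose by 0.22.

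Genes of the integrated stress response, the program by which ATF4 raises amino acid supply, were also mostly lower, with 29 of 39 falling and 2 rising, but by smaller steps (median -0.41). The steepest falls were in the secreted factors of the program. *Fgf21*, a hormone-like fibroblast growth factor, went from 46.5, 36.8 and 42.3 to 8.59, 10.6 and 9.33 CPM and *Gdf15*, a stress cytokine, from 161, 142 and 143 to 55.2, 48.7 and 51.2 CPM. In both genes every ponatinib library lay below every DMSO library. *Cth*, which makes cysteine, fell by 0.92 and *Slc7a11*, the cystine importer, by 0.84, while *Slc3a2*, the shared heavy chain of such transporters, was at 1380 ± 68.9 CPM with DMSO against 1295 ± 27.4 CPM with ponatinib (SD, n = 3 each) without passing the test (adjusted p = 0.312). The 2 rises were *Stc2*, a secreted glycoprotein (0.72), and the pseudokinase gene *Trib3* (0.27).

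Transcripts of genes for ribosome production were mostly lower, while ribosome output itself was not measured. Of 63 ribosome biogenesis factors, 48 fell (76.2%) and 1 rose (0 to 4 under the alternatives), with a median of -0.37. *Ncl*, the nucleolar protein nucleolin, was at 1124, 1431 and 1383 CPM with DMSO and 557, 699 and 652 CPM with ponatinib (log2 fold change -1.05, standard error 0.10, adjusted p = 1.05e-06), and *Nop58*, a core protein of the snoRNPs that modify ribosomal RNA, fell by 0.89. *Bop1* and *Rrp1*, which also act on the large subunit, were at 0.21 and 0.18 on the log2 scale and did not pass the test. They did with the replicate block (adjusted p = 0.00473 and 0.0151) and without DMSO replicate 1 (0.00234 and 0.00892). The genes of the ribosomal proteins were less affected. Of 84 tested, 21 fell and 2 rose (median -0.13), and these counts were 10 and 7 with total-count scaling and 13 falls without ponatinib replicate 1 or 2, while the replicate block gave 35 falls, so no direction is given for the family. Of 79 mitochondrial ribosomal proteins, 21 rose and 5 fell, none by 2-fold, and total-count scaling gave 40 rises and no fall. The falls were 9 with the replicate block, 3 without DMSO replicate 3 and 1 without ponatinib replicate 2.

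Cell cycle genes fell at both ends of the cycle. Of 61 genes of G1/S transition and DNA replication, 40 fell and 6 rose (median -0.47; the rises were 12 with total-count scaling, 10 with the replicate block and 3 without ponatinib replicate 3), and of 68 genes of G2/M and mitosis, 47 fell and 4 rose (median -0.32), which total-count scaling brought to 30 and 5. The largest falls were in the cyclins E, with *Ccne2* at 4.93, 5.84 and 4.7 CPM in the DMSO libraries and 0.971, 1.39 and 1.08 CPM in the ponatinib libraries, and *Ccne1* lower by 1.69. The licensing factor *Cdc6* fell by 1.43, and *Rrm2*, a subunit of ribonucleotide reductase, by 1.14. *Ccnb2*, a mitotic cyclin, went the other way, from 31.3, 35.2 and 36 to 61.5, 72.2 and 74.9 CPM (log2 fold change 1.02, standard error 0.10, adjusted p = 4.58e-07). *Cdk4*, at 485 ± 17.5 CPM with DMSO against 503 ± 22.5 CPM with ponatinib (SD, n = 3 each), did not pass the test (adjusted p = 0.54). Of 31 p53 targets 12 rose and 13 fell, including the CDK inhibitor *Cdkn1a*, or p21, which fell by 0.81. Among those, the death receptor *Fas* rose from 0.869 to 6.5 CPM and the polo-like kinase *Plk3* fell from 90 to 23.3 CPM.

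Many lysosomal genes rose. Of 57 tested, 39 were higher and 5 lower, 12 of the former at least 2-fold, with a median of 0.47. The falls were 3 with total-count scaling, 2 without DMSO replicate 2, and 3 without DMSO replicate 3 or any 1 ponatinib library. Their summed level was 7482, 7022 and 7275 CPM in the DMSO libraries and 9678, 9704 and 9827 CPM in the ponatinib libraries. The largest rises were in enzymes that take apart glycans and lipids. *Neu1*, a sialidase, was at 77.5, 78.9 and 82.5 CPM with DMSO and 383, 412 and 417 CPM with ponatinib (log2 fold change 2.34, standard error 0.08, adjusted p = 1.57e-11). *Lipa*, the acid lipase that frees cholesterol and fatty acids from lipoproteins, went from 40.3, 40.1 and 39.3 to 177, 171 and 167 CPM (log2 fold change 2.1, standard error 0.07, adjusted p = 2.23e-11). *Gm2a*, an activator of ganglioside breakdown, rose by 2.21 and *Sgsh*, a heparan sulfatase, by 1.55. *Tfeb*, which encodes the factor that drives lysosomal genes, rose from 11.9 to 30.6 CPM, and its relatives *Tfe3* (-0.15, not past the test) and *Mitf* (fell by 0.84) did not follow. Of the proton pump, *Atp6v0a1* was at 435 ± 24.7 CPM with DMSO against 440 ± 0.607 CPM with ponatinib (SD, n = 3 each) and did not pass the test (adjusted p = 0.841), and the 7 subunits or accessory proteins that rose did so by at most 0.47 on the log2 scale. *Hgsnat*, another enzyme of heparan sulfate breakdown, fell by 1.68, and the cathepsins *Ctsl* and *Ctsb* fell by 0.31 and 0.17. Autophagy genes did not rise with the lysosome, as 8 of 40 rose and 17 fell, none by 2-fold. The falls were 10 with total-count scaling and 11 without ponatinib replicate 3, and the rises 5 without DMSO replicate 1 or ponatinib replicate 2.

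The letters TCACGTGA, an E-box form of the CLEAR element that TFEB binds, were found in 7 of the 57 lysosomal promoters (12.3%) and in 1.72% of all promoters. Of these 7 genes, 5 rose, among them *Mcoln1*, *Atp6v0e* and *Cln3*, *Ctsb* fell and *Gla* did not pass the test. The match is shown in capitals for *Cln3*, which encodes a lysosomal membrane protein and rose by 1.12.
*Cln3* chr7:126182420-126182559 (reverse strand): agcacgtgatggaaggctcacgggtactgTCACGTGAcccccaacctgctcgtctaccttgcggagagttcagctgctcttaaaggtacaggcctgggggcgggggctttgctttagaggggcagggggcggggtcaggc

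Genes of both breakdown and synthesis of lipids rose. Of 20 genes of fatty acid oxidation 17 were higher and none lower (median 0.69), the largest share among the lists of 20 or more genes drawn in the plot of functional lists. *Hadh*, a dehydrogenase of mitochondrial β-oxidation, was at 44, 43.6 and 45.1 CPM with DMSO and 156, 158 and 153 CPM with ponatinib (log2 fold change 1.81, standard error 0.07, adjusted p = 6.89e-11). *Cpt1a*, which admits fatty acids to mitochondria, went from 125, 116 and 116 to 277, 244 and 244 CPM and *Acadm*, the medium-chain acyl-CoA dehydrogenase, from 67.8, 67.4 and 72.2 to 135, 163 and 155 CPM. The means of all 3 at least doubled, and the groups did not overlap. *Hadha* and *Acadl*, also of the mitochondrial pathway, were at 0.14 and -0.03 on the log2 scale and did not pass the test.

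Sterol genes rose unevenly along the pathway. *Tm7sf2*, a sterol reductase, went from 9.13, 8.06 and 9.52 to 35, 35.3 and 42.2 CPM (log2 fold change 2.07, standard error 0.12, adjusted p = 3.36e-09), and *Mvk* (mevalonate kinase) and *Nsdhl*, also enzymes of the pathway, rose by 1.51 and 1.11. Not all steps took part. *Sqle*, squalene epoxidase, was at 83 ± 8.18 CPM with DMSO against 87.4 ± 3.21 CPM with ponatinib (SD, n = 3 each) without passing the test (adjusted p = 0.46), and *Lbr*, a sterol reductase of the nuclear envelope, fell by 0.46. In all, 18 of 25 listed genes rose and 3 fell. Of fatty acid synthesis genes 15 of 24 rose and 3 fell, led by *Acss2*, which makes acetyl-CoA from acetate (2.41), and *Fads2*, a desaturase (1.71). *Fasn*, fatty acid synthase, was at 286 ± 29.2 CPM with DMSO against 264 ± 25.5 CPM with ponatinib (SD, n = 3 each) without passing the test (adjusted p = 0.288), and *Plin2*, which coats lipid droplets, fell from 1377, 1244 and 1288 to 548, 544 and 563 CPM.

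In mitochondria, 27 of 72 respiratory chain subunits rose and 4 fell by small steps (median 0.16), and 38 rose and 2 fell with total-count scaling. *Ndufv3* and *Ndufa3* of complex I each rose by 0.88, while *Cycs*, cytochrome c, fell by 1.13. Of the citric acid cycle list, *Idh1*, the cytosolic isocitrate dehydrogenase that makes NADPH, rose from 26.3, 28.1 and 29.1 to 100, 104 and 96 CPM (log2 fold change 1.85, standard error 0.08, adjusted p = 1.97e-10). Hypoxia response genes tended the other way, 13 of 20 lower and 5 higher, with *Ero1a*, an ER oxidase, at -1.49.

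**Figure D3:**
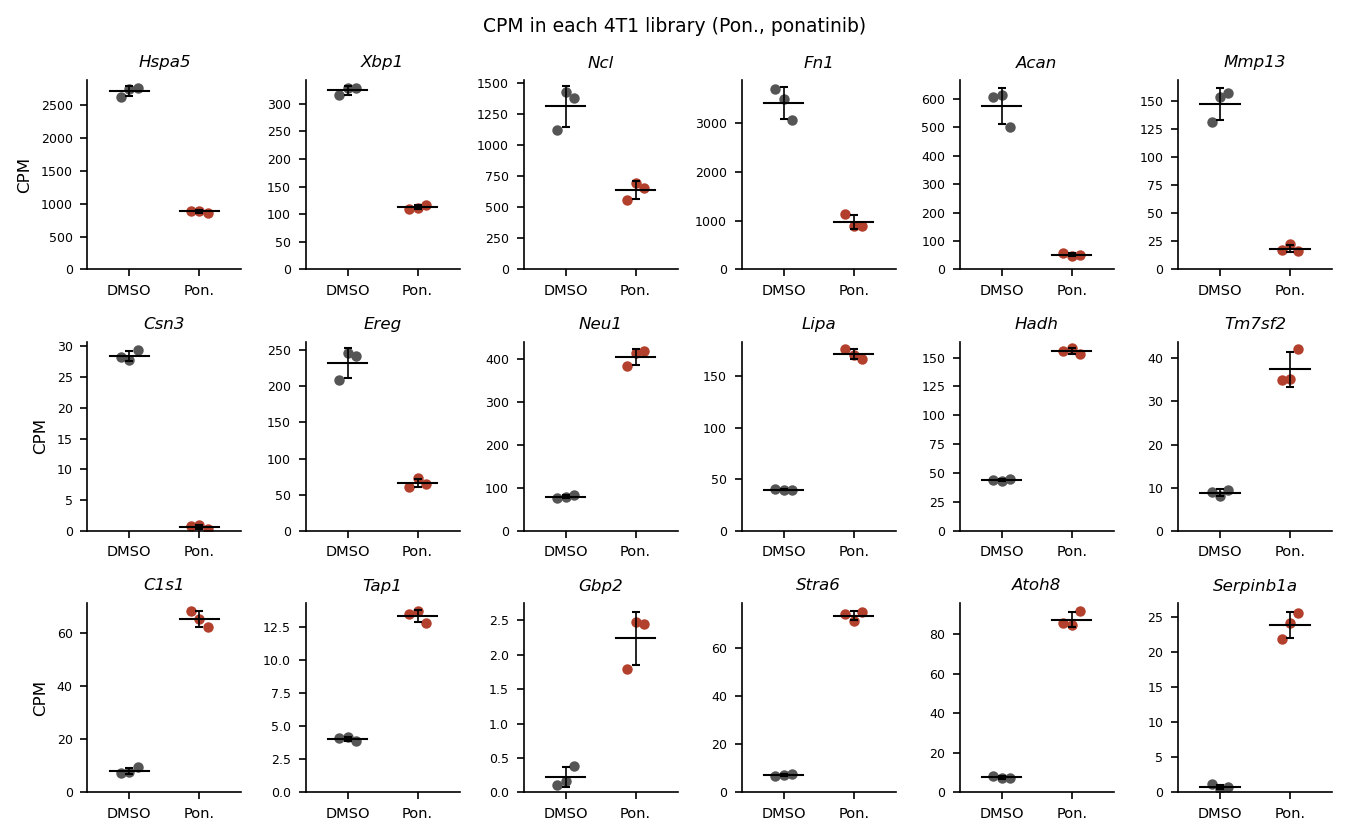
Each point is the CPM of 1 library for 18 genes of the groups described in the text, with the 3 DMSO libraries in gray and the 3 ponatinib libraries (Pon.) in red; the bar is the mean and the whiskers are 1 SD. In each panel the groups do not overlap, with *Hspa5* through *Ereg* lower and *Neu1* through *Serpinb1a* higher with ponatinib. *Csn3* passed the filter through the DMSO libraries and *Gbp2* through the ponatinib libraries, so the filter favored a difference in both.

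Interferon-stimulated genes rose with clear exceptions. Of 49 tested, out of 66 in the files, 35 were higher and 7 lower, with 24 at least 2-fold higher and a median of 0.98. Many had low levels, and *Lgals3bp*, a secreted galectin-binding glycoprotein, held the highest CPM of the list, 601 ± 20.9 CPM with DMSO against 1161 ± 36.9 CPM with ponatinib (SD, n = 3 each). *Uba7*, the activating enzyme of ISG15 conjugation, was at 1.47, 2 and 2.95 CPM in the DMSO libraries and 21.1, 19.1 and 20.7 CPM in the ponatinib libraries (log2 fold change 3.24, standard error 0.18, adjusted p = 2.94e-09). *Parp14* rose by 1.69 and *Trim21*, an antibody receptor of the cytosol, by 1.65. *Isg15* itself, at 3.69, 3.17 and 2.13 CPM with DMSO and 3.48, 3.67 and 4.55 CPM with ponatinib, did not pass the test (adjusted p = 0.164). The 7 that fell were *Trim25*, *Adar*, *Isg20*, *Oasl1*, *Ccl5*, *Cxcl10* and *Rsad2*, of which *Cxcl10*, a T cell chemokine, went from 13 to 3.78 CPM. With at least 10 counts asked of every library, 40 of the listed genes could be tested, of which 27 rose and 7 fell.

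The interferon-stimulated response element (ISRE), the site of IRF and STAT2 complexes, searched as GAAA, any 2 bases and GAAA, was found in 21 of the 49 promoters of the list (42.9%) and in 3.43% of all promoters. Among these carriers 15 genes rose and 2 fell, *Cxcl10* and *Rsad2*. Over all tested protein-coding genes, the listed ones included, the element was in 4.36% of promoters of genes at least 2-fold higher and 4.01% of those at least 2-fold lower. Shown are *Usp18*, an ISG15 protease that rose by 2.69, *Ifit3*, an antiviral protein that rose by 1.55, *Oas1c* of the oligoadenylate synthetases, which rose by 3.49, all 3 at low level, and *Rsad2*, the antiviral enzyme viperin, which fell by 1.92. *Usp18*, *Ifit3* and *Oas1c* passed the filter through the ponatinib libraries, so that the filter favored a rise in them. The counts of carriers that rose may follow in part from it too. Capitals mark the ISRE matches and, in *Rsad2*, also the AP-1 site TGAGTCA that its promoter holds.
*Usp18* chr6:121222747-121222856 (forward strand): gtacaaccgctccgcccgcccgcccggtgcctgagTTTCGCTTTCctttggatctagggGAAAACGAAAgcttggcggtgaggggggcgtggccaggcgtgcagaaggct
*Ifit3* chr19:34560749-34560898 (forward strand): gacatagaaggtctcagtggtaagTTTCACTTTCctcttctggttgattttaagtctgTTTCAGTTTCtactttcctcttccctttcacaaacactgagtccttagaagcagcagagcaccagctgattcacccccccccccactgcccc
*Oas1c* chr5:120950580-120950719 (reverse strand): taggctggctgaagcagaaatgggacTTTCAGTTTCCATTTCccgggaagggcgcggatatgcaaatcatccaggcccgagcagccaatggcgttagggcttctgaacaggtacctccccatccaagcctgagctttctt
*Rsad2* chr12:26506452-26506601 (reverse strand): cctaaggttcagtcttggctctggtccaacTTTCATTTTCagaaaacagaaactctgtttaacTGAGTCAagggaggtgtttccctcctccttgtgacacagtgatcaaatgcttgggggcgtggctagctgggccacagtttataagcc

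Mice carry families of interferon-inducible GTPases, the guanylate-binding proteins and the IRG proteins, that attack vacuoles of intracellular pathogens, and most IRG members have no human counterpart. Of 11 tested, out of 24 in the files, 9 rose and 2 fell, and with at least 10 counts asked of every library 5 rose. Of the 2 falls, 1 was lost with total-count scaling, with DESeq2 and without DMSO replicate 1 or ponatinib replicate 2 or 3. *Ifi47* was at 6.18, 6.11 and 6.51 CPM with DMSO and 21.9, 25 and 27.3 CPM with ponatinib (log2 fold change 1.98, standard error 0.13, adjusted p = 9.61e-09), and *Gbp9* at 0.794, 0.945 and 1.04 CPM with DMSO and 8.38, 7.65 and 6.56 CPM with ponatinib. *Irgm1* rose by 0.98 and *Irgm2* by 1.38. The other mouse-expanded families of the same kind did not follow, with 4 of 15 Ifi200, Schlafen and related genes higher and 7 lower. Among these *Slfn2* rose from 24.5, 19.5 and 20.9 to 44.2, 54.1 and 49 CPM, and *Ifi203*, a DNA-binding protein of the Ifi200 group, fell from 121, 138 and 145 to 59, 65.4 and 63.5 CPM. Genes of such families are near copies of each other, so their counts depend on how shared reads were assigned, which the sources used here do not state.

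Most tested genes of antigen presentation by MHC class I rose, and the classical heavy chain genes did not. Of 21 genes tested, out of 31 in the files, 16 were higher and 1 lower, 10 of the former at least 2-fold. *Tap1* and *Tap2*, the peptide transporter, went from 4.08, 4.17 and 3.88 to 13.5, 13.7 and 12.8 CPM and from 9.07, 8.06 and 9.02 to 24.2, 21.8 and 24 CPM. *Tapbp*, tapasin, which loads the peptides, went from 21.2, 19.5 and 19.8 to 64.8, 62.9 and 65.1 CPM (log2 fold change 1.67, standard error 0.08, adjusted p = 8.6e-10), and *Psmb10*, an immunoproteasome subunit, rose by 1.33. All of these at least doubled in every pair of libraries that can be formed. *B2m*, the light chain, rose by 0.46. Of the classical heavy chains, *H2-K1* was at 49.9 ± 1.85 CPM with DMSO against 56.3 ± 2.84 CPM with ponatinib (SD, n = 3 each) without passing the test (adjusted p = 0.0742, and 0.0444 with the replicate block), and *H2-D1* fell from 776, 632 and 683 to 445, 450 and 477 CPM (log2 fold change -0.61, standard error 0.08, adjusted p = 2.62e-05). Since *H2-D1* held most of the list's counts, the summed level was 1191, 1043 and 1137 CPM with DMSO and 1075, 1104 and 1151 CPM with ponatinib. The nonclassical *H2-T10* and *H2-T22* rose by 1.61 and 1.49, and since heavy chain genes resemble each other closely, reads may be shared among them. Of the stress ligands of the killer cell receptor NKG2D, *H60b* and *Raet1e* rose by 1.37 and 1.04 and *Ulbp1* fell by 2.02. For *Cd274*, or PD-L1, the values were 5.27, 4.84 and 5.74 CPM with DMSO and 10.7, 7.34 and 9.49 CPM with ponatinib (log2 fold change 0.80, adjusted p = 0.000797).

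Of 20 tested complement and coagulation genes 10 rose and 5 fell. The complement genes *C2*, *C4bp*, *Cd55* and *Hc* passed the filter through the ponatinib libraries, so that the filter favored a rise in them. The proteases that start the classical pathway rose, with *C1s1* at 7.26, 7.67 and 9.52 CPM with DMSO and 68, 65.3 and 62 CPM with ponatinib (log2 fold change 3.0, standard error 0.11, adjusted p = 3.87e-11) and *C1ra* at 25.3, 24.7 and 24.7 CPM with DMSO and 97.1, 106 and 100 CPM with ponatinib (log2 fold change 2.02, standard error 0.08, adjusted p = 6.89e-11). *C1rl* rose by 2.65, *Cfb*, factor B of the alternative pathway, by 2.31, and *C3*, on which all branches converge, from 93.9, 90.9 and 77.4 to 287, 251 and 248 CPM. The surface proteins *Cd55* and *Cd46*, which restrain complement, rose by 1.53 and 0.85. The 5 falls were those of 3 genes of coagulation and of *C3ar1* and *C1qbp*. *Thbd*, thrombomodulin, went from 261, 258 and 249 to 75.3, 67.5 and 66.9 CPM, *Procr*, the protein C receptor, from 190 to 54.1 CPM, and *F3*, tissue factor, from 440 to 320 CPM. *Clu*, clusterin, was at 413 ± 26.6 CPM with DMSO against 386 ± 32 CPM with ponatinib (SD, n = 3 each) and did not pass the test (adjusted p = 0.335).

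Serpins, inhibitors of serine proteases, have multiplied in rodents. Of 23 clade A members in the files 3 could be tested, and 1 with at least 10 counts asked of every library. The other 2 passed the filter through the ponatinib libraries alone, so their rise was fixed by the filter. *Serpina3h*, which the annotation lists as a transcribed pseudogene, was at 1.08, 1.5 and 1.2 CPM in the DMSO libraries and 24.8, 27.9 and 23.4 CPM in the ponatinib libraries (log2 fold change 4.32, standard error 0.16, adjusted p = 4.63e-11), and *Serpina3i* rose from 0.165 to 5.25 CPM. Of 8 clade B members tested, 4 rose and 3 fell (1 with at least 10 counts in every library). Beside *Serpinb1a*, *Serpinb8*, an inhibitor of furin-like proteases, rose from 0.567, 0.611 and 0.547 to 10.9, 13.4 and 12.7 CPM and *Serpinb6b* by 1.71, whereas *Serpinb6a* fell from 463, 477 and 534 to 270, 302 and 311 CPM.

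Enzymes that act on drugs, aldehydes and retinoids rose, 35 of 49 tested against 9 that fell (median 0.83). *Stra6*, the receptor through which cells take up retinol (ENSMUSG00000032327, chromosome 9 of GRCm39 from 57970967 to 58063543), was at 6.92, 7.23 and 7.6 CPM with DMSO and 74.1, 71.3 and 74.9 CPM with ponatinib (log2 fold change 3.34, standard error 0.10, adjusted p = 7.42e-12). *Dhrs3*, a reductase of retinal, rose by 1.64. *Aldh1a3*, which makes retinoic acid, fell from 100, 104 and 98.9 to 17.5, 13.8 and 14.7 CPM (log2 fold change -2.72, standard error 0.10, adjusted p = 2.66e-11). Other aldehyde dehydrogenases rose, *Aldh3a1* from 22.1, 21.4 and 21.4 to 137, 150 and 150 CPM and *Aldh1l1*, of folate metabolism, by 3.25. *Cyp1b1*, a classic target of the aryl hydrocarbon receptor, rose by 2.61, whereas the receptor gene *Ahr* fell by 1.22, its target *Tiparp* fell by 0.74 and *Cyp1a1* was at 0.08 without passing the test. *Nr1i2*, which encodes the drug-sensing nuclear receptor PXR, went from 0.227, 0.611 and 0.164 to 7.46, 6.46 and 6.29 CPM and passed the filter through the ponatinib libraries, so no test is given for it.

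Antioxidant genes were divided. Of 34 NRF2 targets, 16 rose and 11 fell. *Mgst1* and *Ephx1*, which detoxify lipid peroxides and epoxides, rose by 2.15 and 1.63, and *Gclm*, of glutathione synthesis, by 1.25, while *Sqstm1* fell by 0.73 and *Prdx1* by 0.29. Among ABC transporters, which export drugs and lipids, 16 of 31 rose and 8 fell. *Abcc3* went from 253, 237 and 227 to 775, 709 and 705 CPM, *Abcc6* from 0.222 to 5.61 CPM and *Abcg2*, a multidrug exporter, from 12.8 to 30.9 CPM. The mouse genes for P-glycoprotein parted, as *Abcb1b* fell from 103, 114 and 108 to 19.9, 17.7 and 19 CPM (log2 fold change -2.52, standard error 0.09, adjusted p = 2.12e-11) and *Abcb1a* was at 66.3, 65.3 and 73.2 CPM with DMSO and 72.2, 73.3 and 70.1 CPM with ponatinib, a difference that did not pass the test (adjusted p = 0.431). Solute carriers were more often higher, 91 of 220 against 59 lower. In both transporter families the filter let in more genes through the ponatinib libraries alone than through the DMSO libraries alone. It thereby favored part of these rises. *Slc40a1*, the iron exporter ferroportin, was at 4.54, 4.45 and 4.59 CPM with DMSO and 26.5, 24.9 and 27 CPM with ponatinib. Iron storage genes rose with it, *Fth1* by 0.46 and *Ftl1* by 0.27.

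Matrix genes showed some of the deepest losses. *Acan*, the proteoglycan aggrecan (ENSMUSG00000030607, chromosome 7 of GRCm39 from 78702964 to 78764847), was at 607, 614 and 502 CPM with DMSO and 56.9, 47.6 and 50.6 CPM with ponatinib (log2 fold change -3.47, standard error 0.10, adjusted p = 7.71e-12). *Tnc*, tenascin-C, went from 12.8, 13.7 and 9.62 to 0.92, 0.672 and 0.976 CPM, and *Mmp13*, a collagenase, from 131, 154 and 157 to 17.1, 22.3 and 16.5 CPM (log2 fold change -2.98, standard error 0.11, adjusted p = 5.59e-11). In all 3 genes the ponatinib libraries lay far below the DMSO libraries. The proteases *Adamts1* and *Adam8* fell by 2.55 and 1.6, and the urokinase receptor *Plaur* by 0.83. The losses did not extend to the matrix as a whole. Of 36 laminins, matricellular proteins and proteoglycans 15 rose and 13 fell, and of 19 collagens 8 rose and 6 fell. *Thbs1*, thrombospondin, rose from 4.59, 5.45 and 3.94 to 24, 19.3 and 19.1 CPM, *Cspg4* by 2.0, and *Col15a1* by 1.8. *Fbln2* and *Timp2*, a fibulin and a protease inhibitor, were at 0.08 and 0.13 on the log2 scale and did not pass the test.

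Among mesenchymal genes 10 of 22 fell and 5 rose. *Hmga2*, a chromatin protein of embryonic and tumor cells, went from 1140, 1163 and 1183 to 279, 286 and 257 CPM (log2 fold change -2.08, standard error 0.08, adjusted p = 3.87e-11) and the homeobox gene *Prrx1* from 8.84 to 1 CPM, whereas *Vim*, vimentin, at 3257 ± 341 CPM with DMSO against 3605 ± 154 CPM with ponatinib (SD, n = 3 each), did not pass the test (adjusted p = 0.176). Without DMSO replicate 1, *Vim* was called higher (0.22 on the log2 scale, adjusted p = 0.0304). Integrins moved in both directions, *Itga1* up by 2.84 and *Itgb6* by 2.26, *Itgb7* down from 529, 434 and 431 to 121, 111 and 119 CPM. Of junction genes 15 of 44 rose and 14 fell. Among these *Cgn*, cingulin of tight junctions, rose by 1.09, *Grhl2* and *Esrp1*, regulators of the epithelial state, fell by 1.22 and 1.45, and *Cldn6*, a fetal claudin, fell from 241, 218 and 228 to 77.9, 70.2 and 78.2 CPM.

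Some genes of squamous differentiation and of milk fell steeply. Of 11 tested genes of squamous differentiation 6 fell and 4 rose (2 rises with at least 10 counts asked of every library). *Sprr1a*, a cross-linked protein of the cornified envelope, was at 719, 516 and 625 CPM with DMSO and 74.9, 78.1 and 77.5 CPM with ponatinib (log2 fold change -3.01, standard error 0.11, adjusted p = 3.09e-11), and *Sprr2h* of the same family, whose members are similar enough to share reads, at 118, 76.2 and 87.9 CPM with DMSO and 14.8, 16.7 and 17.5 CPM with ponatinib. *Anxa8* went the other way, from 75.2, 67.5 and 81.5 to 282, 300 and 320 CPM. Of 16 genes of milk and mammary differentiation 6 rose and 7 fell. Here *Csn3* and *Spp1*, osteopontin (from 860 to 221 CPM), were lower, and *Xdh*, xanthine oxidoreductase of the milk fat globule (from 5.13 to 36.2 CPM), *Wnt4* (3.35) and *Stat5a* (1.81) were higher. The estrogen receptor gene *Esr1* rose from 3.41 to 6.33 CPM, *Pgr* had no count in any library, and *Erbb2* was at 91.9 ± 9.72 CPM with DMSO against 95.4 ± 8.6 CPM with ponatinib (SD, n = 3 each) and did not pass the test.

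*Mmp13* and *Sprr1a* are shown with *Il11*, a cytokine of the IL-6 family, because the promoters of all 3 hold the AP-1 site TGACTCA or TGAGTCA in the window. *Il11* is at low level, from 1.3 to 0.224 CPM (log2 fold change -2.49). It passed the filter through the DMSO libraries, so that the filter favored its fall. Among promoters of protein-coding genes at least 2-fold lower, 42 of 548 held such a site (7.66%), beside 5.45% of those at least 2-fold higher and 3.91% of all. Of the genes for AP-1 subunits, *Jun* fell by 3.16 on the log2 scale, and *Junb* was at 747 ± 26 CPM with DMSO against 680 ± 48.9 CPM with ponatinib (SD, n = 3 each), which did not pass the test (adjusted p = 0.151). Sites are in capitals.
*Mmp13* chr9:7272414-7272513 (forward strand): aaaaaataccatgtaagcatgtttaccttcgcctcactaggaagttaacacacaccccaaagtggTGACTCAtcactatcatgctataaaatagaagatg
*Sprr1a* chr3:92393209-92393358 (reverse strand): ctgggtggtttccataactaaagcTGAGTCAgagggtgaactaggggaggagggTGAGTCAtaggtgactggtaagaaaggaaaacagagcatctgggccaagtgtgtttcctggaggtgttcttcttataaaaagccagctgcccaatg
*Il11* chr7:4781141-4781270 (reverse strand): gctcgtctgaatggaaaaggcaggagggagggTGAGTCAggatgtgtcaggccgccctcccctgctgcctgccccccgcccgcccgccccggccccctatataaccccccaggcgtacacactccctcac

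The CRE site TGACGTCA, which CREB and ATF proteins bind, differed in share between the directions. It was in 5.11% of promoters of genes at least 2-fold lower, 0.908% of those at least 2-fold higher and 3.32% of all. The E2F sites TTTCCCGC and TTTGGCGC were in 29.5% of the G1/S promoters against 2.94% of all, and of those 18 genes 14 fell and none rose. The cell cycle element CHR, searched as TTTGAA, was in 48.5% of G2/M promoters against 13.4%. The amino acid response element CARE, TGATGNAA, was in 25.6% of the promoters of the integrated stress response list against 2.34%, and 5 of its 10 carriers fell. The sterol element TCACCCCAC was in 1 of 25 sterol promoters, that of *Hmgcs1*. For TGACNNNGC (antioxidant element), TGTTTAC (FOXO) and TTCCNGGAA (GAS), the shares of all promoters were 13.7%, 2.63% and 1.38%. Those of genes at least 2-fold higher were 12.8%, 2.36% and 1.91%, and those of genes at least 2-fold lower were 17.3%, 4.56% and 1.82%. All were searched on both strands, the AP-1 and antioxidant letters can overlap, and a match is a description of the letters and not a sign of binding.

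**Figure D4:**
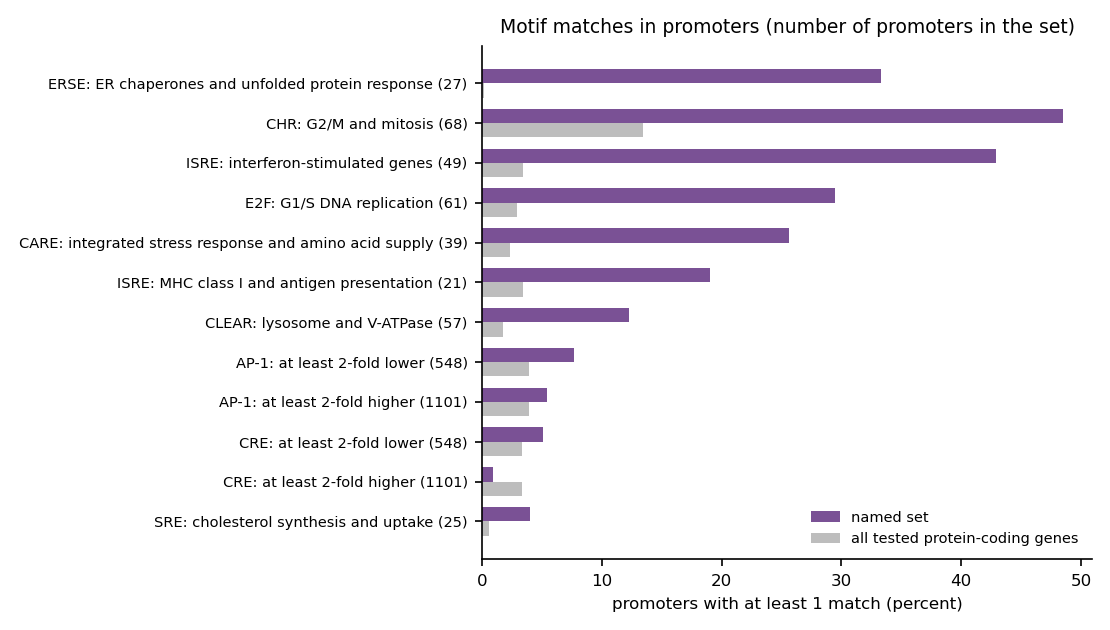
Bars give the percent of promoters (250 bases before to 50 after the transcript start) with at least 1 match to a motif, for a named set (purple, number of promoters in parentheses) and for all tested protein-coding genes (gray). The ERSE shares are 33.3% and 0.119%, and the CRE shares run from 5.11% in genes at least 2-fold lower to 0.908% in genes at least 2-fold higher.

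Genes for secreted signals moved in both directions. Of 23 cytokines and hematopoietic growth factors, 14 fell and 5 rose (9 falls with at least 10 counts asked of every library). *Csf2*, or GM-CSF, which expands granulocytes and macrophages, was at 80.6, 70.4 and 77.6 CPM with DMSO and 9.97, 9.45 and 7.75 CPM with ponatinib (log2 fold change -3.07, standard error 0.11, adjusted p = 2.66e-11). *Il23a*, a subunit of IL-23, went from 7.88, 11.3 and 8.09 to 0.409, 0.465 and 0.325 CPM, in counts 491 against 23, and the granulocyte factor *Csf3* went from 14.7 to 3.3 CPM. *Csf1*, the macrophage growth factor, rose from 522, 530 and 492 to 1045, 963 and 977 CPM (log2 fold change 0.95, standard error 0.08, adjusted p = 9.34e-08). Of 16 chemokines 9 rose and 4 fell, with *Ccl2*, a monocyte attractant, higher (from 121 to 329 CPM), *Ccl9* and *Cx3cl1* higher by 1.93 and 1.48, and *Ccl5* lower by 1.69. *Ptgs2*, the inducible cyclooxygenase of prostaglandin synthesis, fell from 1115, 1097 and 1070 to 163, 142 and 136 CPM (log2 fold change -2.9, standard error 0.09, adjusted p = 8.19e-12), while *Ptges*, the next enzyme, was at 261 ± 17.1 CPM with DMSO against 235 ± 12.7 CPM with ponatinib (SD, n = 3 each) and did not pass the test (adjusted p = 0.0427 with the replicate block).

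Of the ligands of the EGF receptor, *Ereg* (epiregulin) was at 209, 246 and 241 CPM with DMSO and 61.3, 73.1 and 64.3 CPM with ponatinib, *Btc* (betacellulin) fell by 1.89 and *Areg* (amphiregulin) by 1.42, and these 3 genes lie in 1 run with *Gm19619* on chromosome 5. *Hbegf* and *Tgfa*, elsewhere in the genome, fell by 1.46 and 0.91. *Egf* rose by 0.57 and *Nrg1* fell by 0.24. *Fgf1*, a fibroblast growth factor, rose from 10.3, 10 and 11.5 to 66.4, 69.4 and 67.3 CPM (log2 fold change 2.67, standard error 0.09, adjusted p = 2.62e-11). Of the receptors, *Erbb3* rose by 0.80, *Epha2* fell from 2591, 2372 and 2157 to 1243, 1022 and 1039 CPM, and *Met* was at 115 ± 6.9 CPM with DMSO against 112 ± 13.4 CPM with ponatinib (SD, n = 3 each) without passing the test (adjusted p = 0.782).

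Of 45 tested genes of TGF-β and BMP signaling 15 rose and 19 fell (16 and 12 with total-count scaling), with members of both arms in each direction. *Atoh8*, a bHLH factor induced by BMP signals, was at 8.28, 7.34 and 7.22 CPM with DMSO and 85.7, 84.5 and 91.6 CPM with ponatinib (log2 fold change 3.52, standard error 0.10, adjusted p = 7.42e-12). The BMP targets *Id1*, *Id3* and *Smad6* rose by 1.36, 1.22 and 1.42, and *Bmp2* rose from 0.352 to 5.16 CPM. *Id2*, in contrast, was at 0.02 and did not pass the test. *Ltbp1*, which stores latent TGF-β, fell from 587 to 252 CPM, *Inhba* by 1.43, *Smad3*, a transducer of TGF-β signals, by 0.59 and *Bmpr1a*, a BMP receptor, by 0.34, while *Tgfb2* rose by 1.81. In Wnt signaling, *Wnt4* and *Rspo3* rose, *Lgr6*, a receptor for R-spondins, fell from 55.5, 56.1 and 48.7 to 7.67, 5.94 and 7.75 CPM, and *Wnt7b* fell by 1.33. The mean levels of *Lrp5*, *Lrp6* and *Axin1* differed by at most 0.19 on the log2 scale and did not pass the test. *Lrp5* passed it with the replicate block (adjusted p = 0.0121) and without DMSO replicate 1 (0.32 on the log2 scale, adjusted p = 0.00636).

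Of 326 transcription factors, 146 were lower (44.8%) and 64 higher (19.6%), with a median of -0.18. Among the 2657 most abundant of all tested genes, 46.4% were lower and 19.8% higher, with a median of -0.16. Whether the shares of transcription factors differ from those of other genes of like abundance was not tested. *Hnf4a*, a nuclear receptor of liver and gut, rose from 305 to 368 CPM. In the circadian clock 12 of 20 genes fell. Those included both partners of the activating complex, *Clock* (from 139 to 61.3 CPM) and *Bmal1* (from 190 to 96.4 CPM), and also the repressors *Per1* and *Per2* (fell by 0.96 and 0.57). *Dbp*, an output factor of the clock, rose by 1.23. All libraries were taken after the same 24 h, so no phase can be read from these values.

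Of the BCL2 family, 9 of 17 rose and 2 fell (1 with total-count scaling and without DMSO replicate 2 or ponatinib replicate 2 or 3). Members that promote cell death rose beside *Bcl2* itself (0.72), with *Bmf* at 34, 31.8 and 36.4 CPM with DMSO and 102, 92.8 and 96.7 CPM with ponatinib, *Bid* higher by 0.91 and *Pmaip1*, or NOXA, by 0.94, while *Bbc3*, or PUMA, fell by 0.51. The survival genes *Mcl1* and *Bcl2l1* were at 0.02 and -0.16 on the log2 scale and did not pass the test, except for *Bcl2l1* with the replicate block (adjusted p = 0.0287). *Bcl2l14* rose from 0.17, 0.222 and 0.109 to 7, 7.75 and 5.75 CPM. Genes of the primary cilium, the sensory antenna that cells build when they leave the cycle, were higher in 26 of 52 and lower in 8 (35 and 2 with total-count scaling, and 5 lower without DMSO replicate 2 or ponatinib replicate 2 or 3). *Wdr19* and *Dync2li1*, of transport within the cilium, rose by 1.48 and 1.08, and *Bbs9* fell by 1.35.

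Genes without a human gene of the same letters were compared with the rest. Of 876 such protein-coding genes 13.5% were at least 2-fold higher and 6.39% at least 2-fold lower, and of 10876 with one 9.04% and 4.52%. Matching by letters puts some genes with a human counterpart into the first class, such as *C1s1*, *C1ra* and the glutathione transferase gene *Gstt1* (log2 fold change 2.3), and that class holds many members of duplicated families. Among the 10 largest rises in it were *Cbr2*, a carbonyl reductase, at 2.1, 1.72 and 1.75 CPM with DMSO and 14.7, 13.5 and 15.7 CPM with ponatinib, and *Acaa1b*, a peroxisomal thiolase, at 7.32, 6.06 and 6.29 CPM with DMSO and 49.1, 42.8 and 45.1 CPM with ponatinib. Falls there included those of a hormone and of receptors. *Prl2c2*, which encodes proliferin, a prolactin-related hormone of the mouse placenta and of proliferating cells, was at 84.9, 79.5 and 85.8 CPM with DMSO and 6.54, 7.59 and 6.24 CPM with ponatinib (log2 fold change -3.62, standard error 0.10, adjusted p = 7.42e-12), and its near copy *Prl2c3* fell by 3.53, so that the pair cannot be told apart with certainty. *Tnfrsf23*, a mouse decoy receptor for TRAIL, went from 111, 117 and 112 to 21.4, 21.5 and 19.7 CPM, *Klra4*, a Ly49 receptor gene better known from natural killer cells, from 21.3, 28.1 and 30.4 to 5.21, 5.79 and 6.72 CPM, and the transcripts *D5Ertd615e* and *U90926* fell by 4.2 and 4.01 on the log2 scale.

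Several called genes were neighbors. Runs of at least 4 adjacent tested genes that were all at least 2-fold changed in the same direction occurred at 8 places. On chromosome 17, *Psmb9*, *Tap1*, *Psmb8* and *Tap2* of the MHC rose between 34400960 and 34435829. On chromosome 6, *C1rl*, *C1ra*, *C1s1* and *C1rb* rose between 124470055 and 124558130. On chromosome 9, *Cyp11a1*, *Ccdc33*, *Stra6*, *Islr* and *Islr2* rose with the model *Gm17322* between 57905324 and 58111602, and *Islr2*, a neuronal membrane protein gene, went from 7.83, 7.56 and 7.66 to 67.4, 67.1 and 66.7 CPM. On chromosome 19, *Aldh3b1*, *Aldh3b3*, *Aldh3b2*, *Acy3* and *Unc93b1* rose in 1 run and *Fas*, *Lipa*, *Ifit2* and *Ifit3* in another, and on chromosome 5, *Rasal1*, *Oas3*, *Oas1c*, *Oas1b* and *Oas1a* rose. The runs that fell were that of *Ereg*, *Areg*, *Gm19619* and *Btc* between 91222157 and 91550883 of chromosome 5 and that of *Gsg1*, *Pbp2* and 3 gene models on chromosome 6. Several of these runs hold gene families that arose by duplication, in which shared reads can tie neighbors together. Untested genes between tested ones were passed over. *Psmb8*, *Psmb9*, *Cyp11a1*, *Ccdc33*, *Islr*, *Gm17322*, *Aldh3b3*, *Ifit3*, *Oas1a*, *Oas1b* and *Oas1c* passed the filter through the ponatinib libraries. *Gsg1* and a gene model of its run passed it through the DMSO libraries. The filter favored their calls, so the runs that hold them follow in part from it. The number of such runs expected from the shares of all genes was not tested.

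The direction of calls went with abundance and gene class. With the tested genes cut into 5 equal groups by mean CPM, 46.4% fell and 19.8% rose among the 2657 most abundant, and 13.4% fell and 27.7% rose among the 2658 least abundant. Among long noncoding RNA genes, 19.9% of 624 were at least 2-fold higher and 6.57% at least 2-fold lower, while of 451 processed pseudogenes, whose reads are hard to tell from those of their parent genes, 15.3% fell and 4.43% rose. Of the 2351 shortest protein-coding genes 35.1% rose and 22% fell, and of the 2351 longest 28.4% rose and 36.8% fell. Abundance, length and class go together, and their parts in these shares were not tested. The 671 and 306 genes that passed the filter through the ponatinib or the DMSO libraries are mostly of low abundance. The shares of the least abundant genes and of long noncoding RNA genes thus follow in part from the filter.

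**Figure D5:**
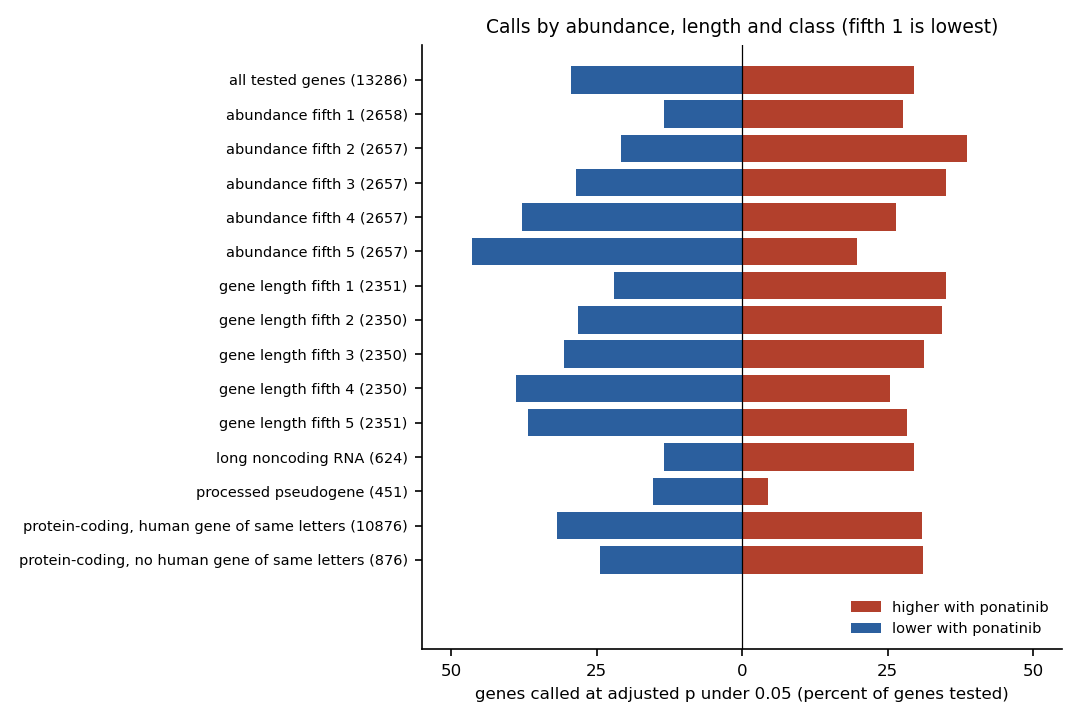
Bars give the percent of tested genes called higher (red, right) or lower (blue, left) with ponatinib, for 5 equal groups by mean CPM, 5 by gene length, and by class, with the number of genes in parentheses. The share of falls grows from 13.4% in the least abundant group to 46.4% in the most abundant.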

How the data were processed

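RNA-seq of the 6 libraries of 4T1 cells was used. Per the study's methods and the submitters' processing notes, the authors trimmed the reads, aligned them to GRCm39 by HISAT2 and used HTSeq to assign them to genes. Versions, annotation and strand setting are not given in the sources used here, so overlapping and antisense genes may share reads. What the authors deposited are unnormalized counts, 17800675 to 18951493 per library. GENCODE vM39 named 91.1% of the 47729 gene identifiers (99.8% of the counts) and, with the GRCm39 sequence, gave gene positions and promoter windows. Intervals from counts cover counting error only.

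Groups were taken from the labels. Genes passing filterByExpr (13286) were scaled by TMM and compared by the quasi-likelihood test of edgeR 4.0.16 in R 4.3.3, with p-values adjusted after Benjamini and Hochberg. Standard errors are the log2 fold change divided by the square root of F. On data simulated for this comparison, 92.9% of 197 changed genes were recovered among 13126, with 19 false calls. Far more genes, 7834, were called in the libraries themselves. Recovery, false calls and TMM scaling with so many called genes were not tested. The common biological coefficient of variation was 0.0869, and chi-square per gene between replicates, 5.27 to 15.5, showed no copied library. Deviations of same-numbered ponatinib and DMSO libraries from their group means correlated at 0.213, 0.119 and 0.115. All lie over 0.1, which was taken as pairing, although no source used here says what a number stands for. The test reported has no block; the fit with a block is an alternative, whose value stands beside a result where it changes the call or moves a count by over 1.5 times.

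Members and lists were chosen with earlier results of these data known. Named are the 20 largest rises and falls (10 CPM or more in the higher group, groups apart), the 10 largest gains and losses in CPM, up to 5 called members of each list with 5 CPM or more, up to 3 abundant members of each that were not called or changed by less than 0.3, the 10 largest rises and falls without a human gene of the same letters, and cell type markers. All others, such as genes with a motif, neighbors in a run or members named for their role, were chosen after their values were seen. Results for some genes that the rule includes are not reported here. Promoter windows of 11752 protein-coding genes began 250 bases before the canonical start and ended 50 after it. The alternatives were DESeq2 1.42.0, its size factors within edgeR, scaling by totals, no filter, a minimum of 10 counts per library, a replicate block, and leaving out each library.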

Additional observations from a re-analysis of the deposited data

How the results depend on the processing

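The counts of genes higher and lower, and at least 2-fold higher and lower, stayed within 1.5 times their values under each alternative run. With the replicate number as a block, a paired analysis, 4310 genes were higher and 4310 lower, 1286 and 649 of them at least 2-fold, and no named gene lost its call while 35 gained one. Leaving out 1 library at a time gave 3537 to 4025 genes higher and 3420 to 4011 lower, and 1270 to 1379 and 638 to 736 at 2-fold. DESeq2 called 3611 higher and 3809 lower. Total-count scaling, with 62.3% of calls higher against 50.1%, cost 38 of the named genes their call and gave 37 others one. *Snhg8*, near 0 and not called with all libraries, lay between -0.15 and 0.28 on the log2 scale when a library was left out, and was called higher without DMSO replicate 1. It was the only named gene that turned in direction with a call. Of small called changes, *Hsp90ab1* lost its call without DMSO replicate 3 or ponatinib replicate 2 or 3 (adjusted p = 0.0616 to 0.0843), *Krt8* without DMSO replicate 2 or 3 or ponatinib replicate 3 (0.0618 to 0.14), *Ftl1* without DMSO replicate 2 or 3 or ponatinib replicate 2 or 3 (0.0515 to 0.0795), *Nrg1* without ponatinib replicate 2 (0.0572) and *Ctsb* without any 1 library (0.0504 to 0.115). Of 87 list medians, 12 changed sign with total counts, among them glycolysis, keratins and collagens. Depth limits genes under about 1 CPM, among them several interferon-stimulated genes.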
